A study of Rattus norvegicus with 12 samples.

Results

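The axon guidance ligands and receptors are 63 genes of the semaphorin, plexin, neuropilin, ephrin, Eph, Slit, Robo, netrin and Unc5 families, out of 37209 gene symbols measured in rat brain. They were chosen by gene name alone: 67 symbols of these families are listed, and the 63 with at least 10 counts in at least 3 of 12 libraries were kept. All 63 were among the 17008 genes that had enough counts to be tested. They comprise 34 ligands, namely 20 semaphorins, 7 ephrins, 3 Slits and 4 netrins, and 29 receptors, namely 14 Eph receptors, 6 plexins, 4 Unc5 receptors, 3 Robo receptors and 2 neuropilins. Of the 4 symbols left out, Efnb1, Plxna3 and Plxnb3 are listed at 0 in every library, and Robo4, a Robo of blood vessels, had 0 to 10 counts. The first 3 lie on the X chromosome, where 97.5% of 606 named protein-coding genes are listed at 0 in all libraries, against 6.57% of 16016 on chromosomes 1 to 20, so their 0 does not show that the transcripts were absent.

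Axon guidance proteins steer growing axons in the embryo by attraction or repulsion. Secreted or membrane-bound ligands act on receptors of the growth cone: semaphorins on plexins, with neuropilins as the ligand-binding partner for class 3 semaphorins, ephrins on Eph receptor tyrosine kinases, Slits on Robo receptors, and netrins on Dcc and Unc5 receptors. In the postnatal brain the same proteins act at synapses, on blood vessels and on glial and immune cells, and after injury several of them limit the regrowth of axons.

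All rats were of the Sprague Dawley strain and aged postnatal day 21, and each of 4 groups has 3 libraries. The stroke groups had middle cerebral artery occlusion (MCAO, which cuts the blood supply of cortex and striatum) or pontine infarction (an infarct in the pons of the brainstem), and the controls are sham groups coded LN and PN. The labels call all 6 control libraries sham, and the shared first letter of the codes is the reason that sham LN was set against MCAO and sham PN against pontine infarction. The tissue is given as brain, without its dissected region or the interval since the stroke, and the labels mention 3 rats for each stroke. Neuron, astrocyte and oligodendrocyte markers were present in every library, while the X-linked neuron marker Syp is listed at 0. One MCAO column carries a number that no sample title has and is called the unnumbered MCAO library. Where separate animals are not stated, p-values measure the spread between these samples.

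Libraries held 19805815 to 40400676 counts, of which the 63 genes took 0.298 to 0.432%. Levels are CPM, read counts scaled to the effective library size that edgeR's TMM method gives, log2 changes are given ± SE, and a gene is said to have changed where its edgeR adjusted p, over all genes tested, was under 0.05. A pair of libraries stood apart from their groups. MCAO replicate 2 lay nearer to sham LN in its summed level of 11 phagocyte and leukocyte markers. This was 460 CPM, against 2921 and 1332 in the other MCAO libraries and 162 to 202 in sham LN. In oligodendrocyte markers replicate 2 was the farthest from sham LN, at 7678 CPM against 11938 and 12094, with 15545 to 22025 in sham LN. The same held for astrocyte markers, at 7121 CPM against 5339 and 5750, with 4276 to 5028 in sham LN. Pontine infarction replicate 3 had a summed level of cerebellar markers of 1232 CPM against 155 and 217 in its group and 270.1 to 306 in sham PN. It was the lowest of its group for 38 of the 63 genes, and MCAO replicate 1 was the lowest of its group for 35. These positions were not counted over all genes. By phagocyte and leukocyte markers, pontine infarction replicate 2 was the lowest of its group, at 603 CPM against 1601 and 1874, with 170 to 204 in sham PN. Counts of changed members are also given without each of these libraries.

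Summed over the 63 genes, the level was 4091, 4727 and 3961 CPM in sham LN replicates 1 to 3 and 3204, 3849.8 and 3653 CPM in MCAO replicate 1, replicate 2 and the unnumbered library. Every MCAO library lay below every sham LN library. It was 3061, 3444 and 3628 CPM in sham PN and 2823, 3035 and 2716 CPM after pontine infarction, again without overlap. The lower level was not shared by all families (plot of summed family levels). The neuropilins stood at 36.7, 51.1 and 42.8 CPM in sham LN and 77.4, 81.7 and 106 CPM after MCAO, so this family was higher after the stroke in every library. The Robo receptors went from 225, 239 and 239 CPM to 86.8, 181 and 94.3 CPM, and the Eph receptors from 762, 1002 and 790.4 CPM to 449.7, 701 and 589 CPM. MCAO replicate 2 was the highest of its group in both. The Unc5 receptors, at 255, 306 and 229 CPM in sham LN and 242, 305 and 236 CPM after MCAO, overlapped. In bulk tissue, fewer cells of a type and less RNA per cell cannot be told apart.

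**Figure D1:**
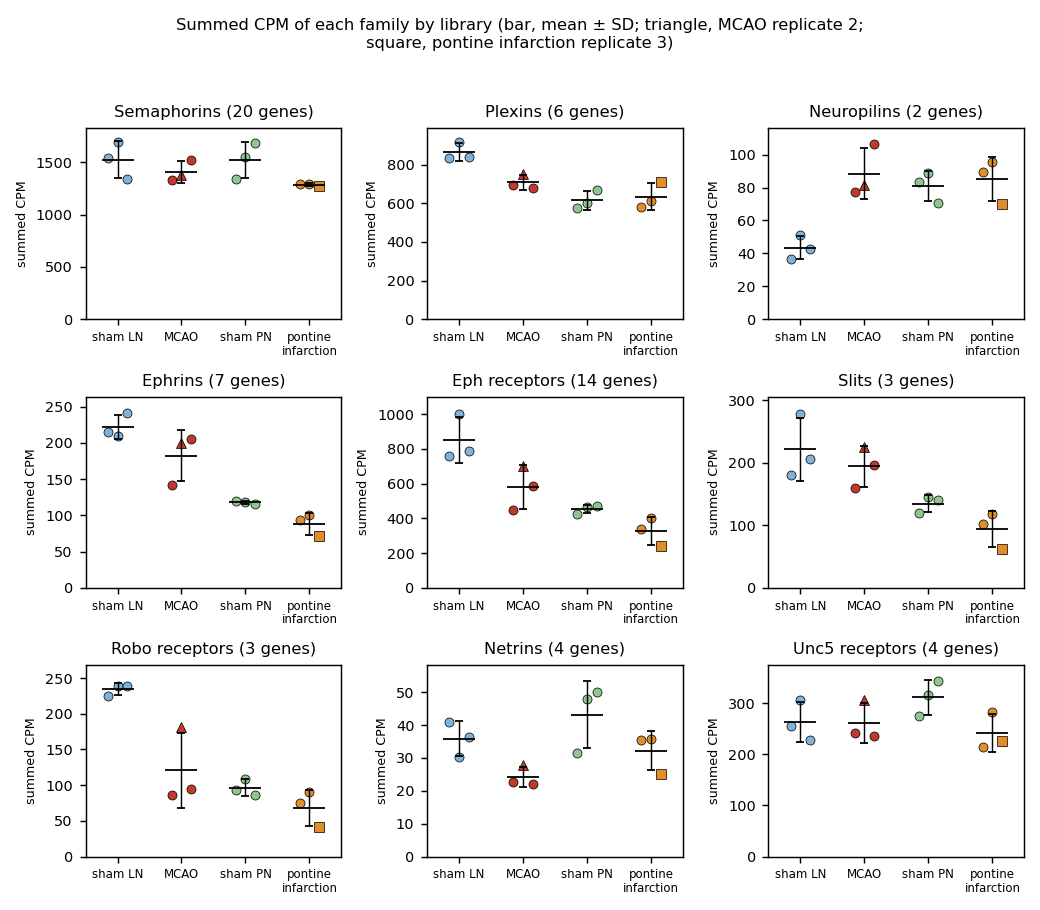
Summed CPM of each of the 9 families by library, with 1 point per library and a bar for the mean ± SD of 3 libraries; the triangle is MCAO replicate 2 and the square is pontine infarction replicate 3. The Robo and Eph receptors lie lower after MCAO than in sham LN and the neuropilins higher, while the Unc5 receptors overlap.

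The comparison of MCAO with sham LN asks which guidance genes differ in the brain after this stroke. Of the 63 genes, 12 changed, 19%, close to the 18.6% of all genes tested. By direction, 3 members rose, 4.76% against 12.5% of all genes, and 9 fell, 14.3% against 6.07%. The median log2 change was -0.31 over the members and -0.0018 over all genes. Among the receptors 1 of 29 rose and 7 fell, and among the ligands 2 of 34 rose and 2 fell.

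Nrp2, the neuropilin that binds class 3 semaphorins such as Sema3f and also the lymphatic growth factor Vegfc, had the smallest p of the members that rose. It stood at 9.72, 15.5 and 12.5 CPM in sham LN and 38.5, 42.8 and 48.4 CPM after MCAO. The lowest MCAO library was above the highest sham LN library, and MCAO replicate 2 lay between the other MCAO libraries. Nrp2 was 3.44-fold higher (log2 change 1.78 ± 0.20, edgeR adjusted p = 0.0011) and remained changed with any 1 of the 6 libraries left out. Its level in sham PN was 45.2, 50.6 and 40.6 CPM and after pontine infarction 55.2, 54.03 and 38.8 CPM, so the level after MCAO overlapped those of sham PN. With all 6 shams as one control, which mixes sham groups that differ in this gene, its log2 change was 0.58 and did not pass (edgeR adjusted p = 0.411). Nrp1, the other neuropilin, had a log2 change of 0.55 and did not pass (edgeR adjusted p = 0.072).

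The ligands that rose were both transmembrane semaphorins. Sema4a, a semaphorin also known from immune cells, stood at 51.98, 57.4 and 54.3 CPM in sham LN and 151, 66.1 and 143 CPM after MCAO (log2 change 1.14 ± 0.26, edgeR adjusted p = 0.0142). MCAO replicate 1 and the unnumbered library were far above the shams, and replicate 2 was just above them. Sema5b, which carries thrombospondin repeats beside its semaphorin domain, stood at 25.9, 27.6 and 21.00 CPM in sham LN and 39.3, 31.5 and 50.2 CPM after MCAO (log2 change 0.70 ± 0.21, edgeR adjusted p = 0.0389). The groups did not overlap for either gene. Without sham LN replicate 1 or 3, MCAO replicate 1 or the unnumbered library, Sema4a did not pass (edgeR adjusted p up to 0.0733). Sema5b passed only without MCAO replicate 2 among the fits that left out 1 library (edgeR adjusted p up to 0.152 in the others). Markers of phagocytes and leukocytes moved in the same direction: 10 of 11 were higher after MCAO, with Ccr2 not analysed here, and their summed level was 162 to 202 CPM in sham LN and 460.3 to 2921 CPM after MCAO. The lowest of these MCAO sums was in replicate 2, where Sema4a and Sema5b had their lowest MCAO level and Nrp2 did not. Fibroblast and meningeal markers summed to 242 to 371 CPM in sham LN and 426 to 1013 after MCAO (1 of 10 higher, 1 lower). Astrocyte markers summed to 4276 to 5028 and 5339 to 7121 CPM (1 of 10 higher, 4 lower). Endothelial markers overlapped, at 351 to 462 and 441 to 527 CPM (1 of 10 higher), as did mural cell markers (2 of 10 higher, 1 lower). The part of any of these markers in the changes was not tested.

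Among receptors that fell, Plxnb1, the plexin that binds Sema4d, went from 249, 219 and 219 CPM in sham LN to 65.8, 142 and 74.9 CPM after MCAO. All MCAO libraries were below all shams, with replicate 2 the highest of them. The change was 2.43-fold (log2 change -1.28 ± 0.25, edgeR adjusted p = 0.00742). Ephb1, a receptor of the transmembrane ephrins-B, went from 99.5, 86.4 and 89.05 CPM to 23.9, 58.1 and 26.2 CPM (log2 change -1.35 ± 0.29, edgeR adjusted p = 0.0112), also without overlap. Without MCAO replicate 2 its log2 change was -1.97, and in a fit of the 6 compared libraries alone it did not pass (edgeR adjusted p = 0.0569). Ephb1, Plxnb1 and Nrp2 were the 3 members that changed whichever of the 6 libraries was left out.

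The other Eph receptors that fell were Epha8, Ephb3 and Epha10. Epha8, a receptor of the GPI-anchored ephrins-A, stood at 42.7, 26.5 and 41.1 CPM in sham LN and 8.03, 21.02 and 8.66 CPM after MCAO (log2 change -1.55 ± 0.36, edgeR adjusted p = 0.0149). Ephb3, another ephrin-B receptor, stood at 29.7, 41.8 and 25.3 CPM and 7.89, 23.00 and 12.00 CPM (log2 change -1.17 ± 0.35, edgeR adjusted p = 0.0368). In both genes the MCAO libraries were below all shams, replicate 2 the nearest to them. Epha10, which lacks kinase activity, had a log2 change of -1.17 (edgeR adjusted p = 0.0173). Epha8 did not pass without sham LN replicate 1 or 3 or the unnumbered library, nor Epha10 without sham LN replicate 1 or 2 (edgeR adjusted p up to 0.061 and 0.0664). Ephb3 passed only without MCAO replicate 2 among these fits (up to 0.126 in the others). Without that library the log2 change was -2.23 for Epha8 and -1.79 for Ephb3.

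Robo1 and Robo3 fell. Robo3, the Robo that governs midline crossing of commissural axons, stood at 20.6, 17.3 and 14.6 CPM in sham LN and 3.51, 4.24 and 8.56 CPM after MCAO (log2 change -1.69 ± 0.43, edgeR adjusted p = 0.0223). The groups did not overlap, and here the unnumbered library, not replicate 2, was nearest to the shams. Robo1, a main Slit receptor, had a log2 change of -0.90 (edgeR adjusted p = 0.024). Robo3 did not pass without any 1 of the sham LN libraries or MCAO replicate 1 (edgeR adjusted p up to 0.0867), and Robo1 passed only without MCAO replicate 2 (up to 0.0931 in the other fits). With all 6 shams as one control, Robo3 had a log2 change of -0.71 and did not pass (edgeR adjusted p = 0.736). Robo2 stood at 153, 169 and 168 CPM in sham LN and 58.3, 139.9 and 61.7 CPM after MCAO without passing the test (log2 change -0.92 ± 0.36, edgeR adjusted p = 0.0928).

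Efna2 and Ntn1 were the ligands that fell. Efna2, a GPI-anchored ephrin, stood at 6.51, 5.93 and 5.55 CPM in sham LN and 2.50, 4.10 and 2.76 CPM after MCAO (log2 change -0.94 ± 0.23, edgeR adjusted p = 0.019). Ntn1, the secreted netrin-1, which attracts axons through Dcc and repels them through Unc5 receptors, stood at 25.8, 13.04 and 22.9 CPM and 10.3, 11.3 and 8.08 CPM (log2 change -1.06 ± 0.29, edgeR adjusted p = 0.03). For both the MCAO libraries lay below the shams, for Ntn1 by a narrow gap to sham LN replicate 2. Efna2 passed only without MCAO replicate 2 among the fits that left out 1 library (edgeR adjusted p up to 0.075 in the others), and Ntn1 did not pass without sham LN replicate 1 or 3, MCAO replicate 1 or the unnumbered library (up to 0.114).

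In the Slits and Unc5 receptors no member passed after MCAO with all libraries; without MCAO replicate 2, Slit2 (log2 change -1.40, edgeR adjusted p = 0.0133) and Unc5d (-1.09, edgeR adjusted p = 0.0348) were lower. Slit2, the Slit with the smallest p, stood at 28.2, 41.6 and 27.8 CPM in sham LN and 10.2, 31.5 and 16.1 CPM after MCAO, with replicate 2 among the shams (log2 change -0.75 ± 0.40, edgeR adjusted p = 0.2). Unc5c, a repulsive netrin receptor, stood at 25.4, 32.3 and 25.1 and 26.1, 42.05 and 29.3 CPM (log2 change 0.23 ± 0.19, edgeR adjusted p = 0.387). The groups overlapped for both genes. By library, 7 of the 63 members had all MCAO libraries above all sham LN libraries, 11.1% against 20.4% of all genes, and 16 had all below, 25.4% against 18.7%. The values of the changed members in every library are in the plot by gene.

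**Figure D2:**
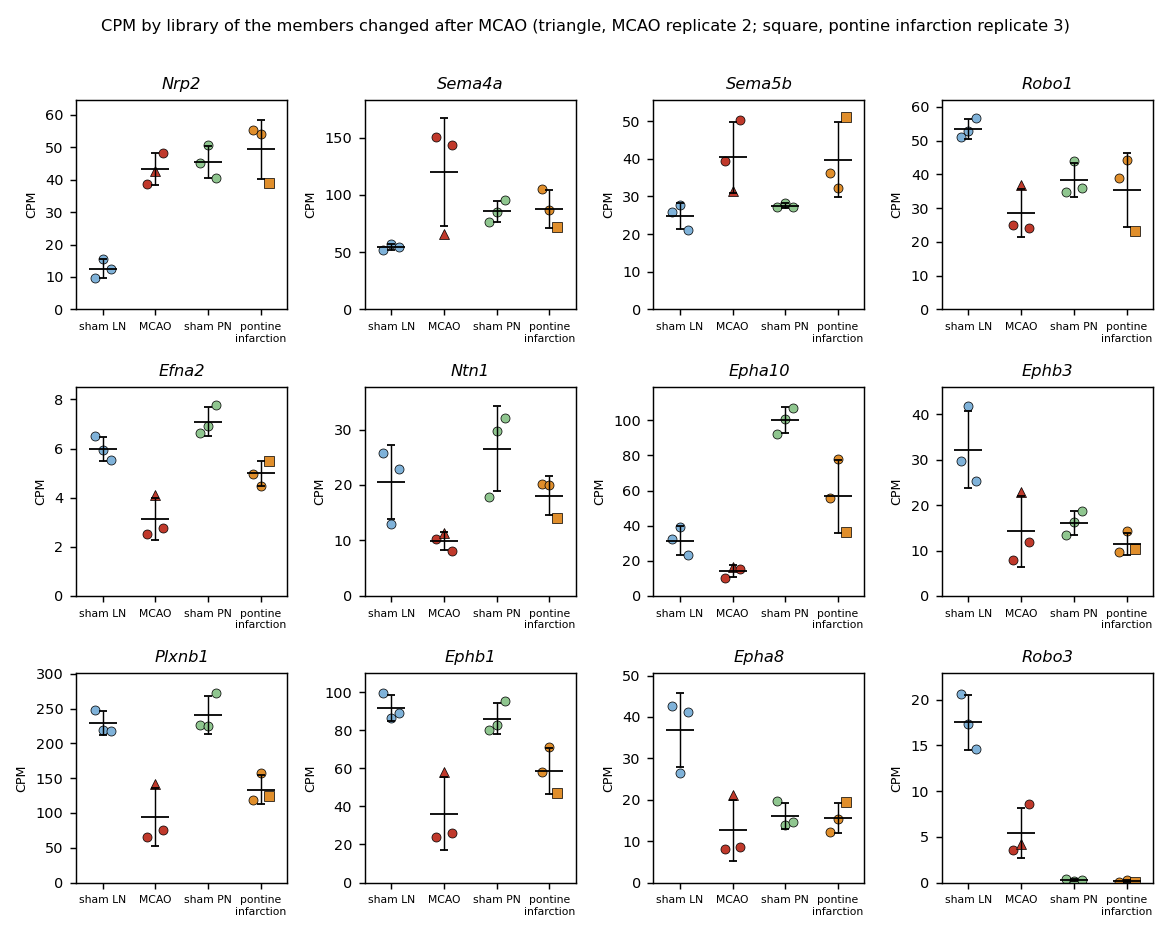
CPM of the 12 members that changed after MCAO, with 1 point per library and a bar for the mean ± SD of 3 libraries; the triangle is MCAO replicate 2 and the square is pontine infarction replicate 3. Nrp2, Sema4a and Sema5b lie above sham LN after MCAO and the other 9 below, and replicate 2 is the highest MCAO library in 8 of those 9.

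The number of changed members depended on single libraries. It was 3, 6 and 4 without sham LN replicates 1, 2 and 3, and 5 without MCAO replicate 1 or the unnumbered library. The count over all genes moved too, from 1136 to 6170 in the fits with 1 library left out, against 3163 with all libraries. Without MCAO replicate 2, 28 members changed, of which 6 rose and 22 fell. The background rose as well, to 6170 of the 17529 genes tested in that fit. Members that passed in that fit and not in the fit of all libraries included, chosen after their values were seen, Efnb3 (log2 change -2.53, edgeR adjusted p = 5.83e-05), Plxnc1 (-1.73, edgeR adjusted p = 0.000734) and Robo2 (-1.54, edgeR adjusted p = 0.00294). In a fit of the 6 compared libraries alone, 5 of the 12 passed: Epha10, Nrp2, Plxnb1, Robo1 and Robo3. With all 6 shams as one control, 6 of the 12 did not pass: Epha8, Ephb3, Nrp2, Robo1, Robo3 and Sema4a. Epha10 passed in that fit at -2.23 on the log2 scale (edgeR adjusted p = 0.0147). The pooled control mixes sham groups that differ in Epha8, Epha10, Nrp2 and Robo3, and Epha10 was lower in sham LN than in sham PN (log2 change -1.67). The median difference of the 63 members from the sham LN mean on the log2 scale was -0.55 for MCAO replicate 1, -0.11 for replicate 2 and -0.39 for the unnumbered library. Other markers that moved with the members that fell were those of oligodendrocytes, with 5 of 9 lower (summed 15545 to 22025 CPM in sham LN, 7678 to 12094 after MCAO), of oligodendrocyte precursors, with 4 of 8 lower (838 to 1093 and 569 to 666 CPM), and of the telencephalon, with 2 of 12 lower (3868 to 4811 and 2286 to 3549 CPM). Of the hindbrain markers 2 of 8 rose, En2 and Slc6a5. The hindbrain sums were 11.2 to 13.1 CPM in sham LN and 18.5 to 35.1 after MCAO. Of the cerebellar markers 1 of 11 rose, Cbln1, with sums of 183 to 211 and 122 to 162 CPM. Of the astrocyte markers 1 of 10 rose, Gfap, and 4 fell. The astrocyte sums were higher, at 4276 to 5028 CPM in sham LN and 5339 to 7121 after MCAO. Of the neuron markers 1 of 9 rose, with Syp listed at 0. Their summed levels were 5178 to 6720.4 CPM in sham LN and 3206 to 5510.4 CPM after MCAO. In MCAO replicate 1, replicate 2 and the unnumbered library the neuron markers summed to 3206, 5510.4 and 4919 CPM, the telencephalon markers to 2286, 3549 and 2826 CPM and the oligodendrocyte markers to 11938, 7678 and 12094 CPM. Replicate 2 was thus the highest of the MCAO libraries in the first 2 sums and the lowest in the third. It had the highest MCAO level in 8 of the 9 members that fell and in 34 of all 63, a position not counted over all genes. The part of the markers in the members' levels after MCAO was not tested.

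Of 60 tested genes that transmit or modulate guidance signals outside these families, 5 rose and 5 fell after MCAO. Of all genes tested, 12.5% rose and 6.07% fell. Those that rose were Fes (log2 change 2.76), a kinase of myeloid cells that acts below semaphorin receptors, the small GTPases Rras (1.70) and Rhoa (0.61), Dpysl3 (0.84), a collapsin response mediator, and the exchange factor Vav2 (0.79). Those that fell were the chimaerins Chn1 (-1.12) and Chn2 (-1.42), which act on Rac below Eph receptors and plexins, Ngef (-1.18), an exchange factor of EphA signalling, and the adhesion proteins Flrt3 (-0.67), a ligand of Unc5 receptors, and Lrrc4 (-0.78), a netrin-G ligand. The median log2 change of the 60 was -0.066.

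The 250 bases before the start of transcription are shown for the 3 members that changed after MCAO in every fit with 1 library left out, for Robo3, which differed most between the shams, and for Epha10, the one member with a match to the AP-1 motif. The sequences are from RefSeq on GRCr8, 5′ to 3′ on the strand of the gene, and capitals mark every CG pair.
Nrp2 (chr9:71617004-71617253, plus strand): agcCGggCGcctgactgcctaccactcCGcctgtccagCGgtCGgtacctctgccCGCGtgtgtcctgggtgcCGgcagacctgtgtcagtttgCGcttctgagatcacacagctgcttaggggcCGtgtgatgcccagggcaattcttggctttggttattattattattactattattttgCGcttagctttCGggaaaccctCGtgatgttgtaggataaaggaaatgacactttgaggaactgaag
Plxnb1 (chr8:118622911-118623160, plus strand): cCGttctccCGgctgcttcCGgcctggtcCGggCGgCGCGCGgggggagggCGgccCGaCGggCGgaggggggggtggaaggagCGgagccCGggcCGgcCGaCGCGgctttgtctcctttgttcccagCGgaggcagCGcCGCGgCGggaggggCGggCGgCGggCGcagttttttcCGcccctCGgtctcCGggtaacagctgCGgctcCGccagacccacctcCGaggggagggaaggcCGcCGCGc
Ephb1 (chr8:111823760-111824009, minus strand): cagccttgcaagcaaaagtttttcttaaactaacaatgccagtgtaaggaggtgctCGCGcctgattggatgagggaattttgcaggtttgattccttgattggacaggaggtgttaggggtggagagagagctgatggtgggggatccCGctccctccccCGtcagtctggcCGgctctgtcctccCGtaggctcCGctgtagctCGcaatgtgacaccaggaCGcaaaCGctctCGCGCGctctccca
Robo3 (chr8:45340223-45340472, minus strand): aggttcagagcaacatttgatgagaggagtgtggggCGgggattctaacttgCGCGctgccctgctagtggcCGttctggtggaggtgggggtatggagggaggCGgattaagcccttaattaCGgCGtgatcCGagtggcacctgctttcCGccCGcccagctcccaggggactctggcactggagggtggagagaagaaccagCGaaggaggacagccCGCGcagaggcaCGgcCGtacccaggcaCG
Epha10 (chr5:142424046-142424295, plus strand): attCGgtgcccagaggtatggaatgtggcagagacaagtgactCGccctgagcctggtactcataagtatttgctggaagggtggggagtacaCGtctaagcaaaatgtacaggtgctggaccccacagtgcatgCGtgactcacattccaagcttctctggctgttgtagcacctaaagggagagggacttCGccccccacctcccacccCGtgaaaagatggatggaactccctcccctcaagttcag
Nrp2 and Ephb1 had 13 CG pairs each, Plxnb1 36, Robo3 16 and Epha10 6. Over the 49 members with an entry the median was 14 CG pairs and the median GC content 64.4%, against 6 and 52.0% over 27457 promoters. The letters TGANTCA (AP-1, both strands) occur in 1 of the 49, 2.04%, in Epha10 from 113 bases before the start, and in 6.36% of all promoters. TTCNNNGAA (STAT) occurs in 2 of the 49, Efna3 and Epha3, 4.08% against 7.52% of all. The NF-kB motif occurs in 0 of the 49 and in 0.317% of all. These windows are a description of letters, and the absence of a motif says only that it is not in them.

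Pontine infarction was compared with sham PN to see which guidance genes differ after a stroke of the brainstem. By edgeR, 1 of the 63 genes changed, 1.59% against 4.08% of all genes tested, and 0 rose, where 3.21% of all genes did. It was Slit3, a secreted repellent of axons that binds Robo receptors. Slit3 stood at 37.01, 41.9 and 42.1 CPM in sham PN and 19.7, 24.98 and 27.4 CPM after pontine infarction, so the groups did not overlap and replicate 3 was the nearest to the shams. It was 1.68-fold lower (log2 change -0.75 ± 0.14, edgeR adjusted p = 0.0152), with a share of 0.87% of all genes lower by the same rule. Without pontine infarction replicate 3, 1 member passed again, and the log2 change of Slit3 was -0.85 (edgeR adjusted p = 0.021). The change did not pass without sham PN replicate 2 (edgeR adjusted p = 0.0862) or 3 (0.0917), nor in a fit of these 6 libraries alone (0.0672). The count of changed members was 0 without either of those shams, 3 without pontine infarction replicate 2, and 1 without sham PN replicate 1 or pontine infarction replicate 1. Over all genes the count ran from 6 to 965 with 1 library left out, the unnumbered MCAO library among them, against 694 with all libraries. After MCAO, Slit3 stood at 109, 111 and 126 CPM against 111, 116 and 114 CPM in sham LN, an overlap (log2 change 0.021 ± 0.13, edgeR adjusted p = 0.927).

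At an unadjusted p under 0.05 stood 17 of the 63 members, 27% against 21.6% of all genes. By library, 19 members had all pontine infarction libraries below all sham PN libraries, 30.2% against 18.7% of all genes, and 3, namely Plxnb2, Sema3c and Sema5b, had all above, 4.76% against 13.3%. The median log2 change was -0.34 over the members and -0.083 over all genes. Sema6d, a transmembrane semaphorin that binds Plxna1, stood at 159, 196 and 208 CPM in sham PN and 119, 153 and 93.2 CPM after the infarction (log2 change -0.63 ± 0.21, edgeR adjusted p = 0.11). Plxnb1 stood at 226, 224 and 273 CPM and 119, 157 and 125 CPM (log2 change -0.85 ± 0.25, edgeR adjusted p = 0.0779). For both genes every pontine infarction library was below every sham PN library, yet neither passed.

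Epha10 stood at 92.3, 101 and 107 CPM in sham PN and 56.00, 77.7 and 36.4 CPM after pontine infarction (log2 change -0.82 ± 0.28, edgeR adjusted p = 0.117). Robo2, a Slit receptor, stood at 58.5, 65.03 and 49.98 and 35.6, 45.7 and 17.7 CPM (log2 change -0.81 ± 0.36, edgeR adjusted p = 0.221). In these receptors the groups were separate as well, with replicate 3 the lowest of all. The same was true of Efna2 at 6.62, 6.91 and 7.76 and 4.98, 4.49 and 5.49 CPM (log2 change -0.51 ± 0.23, edgeR adjusted p = 0.224), where replicate 2 was the lowest.

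Unc5c stood at 40.4, 44.7 and 40.8 CPM in sham PN and 30.9, 34.7 and 28.7 CPM after pontine infarction (log2 change -0.42 ± 0.19, edgeR adjusted p = 0.221), without overlap. Ntn3, a netrin, stood at 4.94, 6.08 and 6.58 and 3.49, 5.10 and 3.48 CPM (log2 change -0.54 ± 0.26, edgeR adjusted p = 0.259), with replicate 2 above sham PN replicate 1. Nrp2 overlapped too (log2 change 0.12 ± 0.20, edgeR adjusted p = 0.758). Beside these values, the neuron markers summed to 4376, 4441 and 2742 CPM in pontine infarction replicates 1 to 3, lowest in replicate 3, against 5407 to 5986 in sham PN, with 0 of 9 passing. Of the oligodendrocyte markers 3 of 9 fell (43075 to 53609.5 CPM in sham PN, 27827 to 30120.5 after the infarction), and of the phagocyte markers 9 of 11 rose. Of the hindbrain markers 1 of 8 fell, Hoxb3, with a median log2 change of -1.09 over the 8. Their sums were 208 to 294 CPM in sham PN and 140 to 214 after the infarction. Of the telencephalon markers 0 of 12 passed, with sums of 372 to 567 and 113 to 447 CPM, and of the cerebellar markers 0 of 11 passed. Their part in the members' levels was not tested.

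DESeq2 called 1738 of 17008 genes and 3 members after pontine infarction: Slit3, Plxnb1 (log2 change -0.82, DESeq2 adjusted p = 0.0251) and Plxnb2, a plexin that binds class 4 semaphorins (1.11, DESeq2 adjusted p = 0.012). Plxnb2, chosen after its values were seen, stood at 98.4, 111 and 121 CPM in sham PN and 185, 182 and 329.5 CPM after the infarction, highest in replicate 3. Its log2 change by edgeR was 1.08 (edgeR adjusted p = 0.0789). Of the 60 genes outside the families 1 changed, where 4.08% of all genes did. It was Fes, which rose (log2 change 2.34 ± 0.45, edgeR adjusted p = 0.0187).

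**Figure D3:**
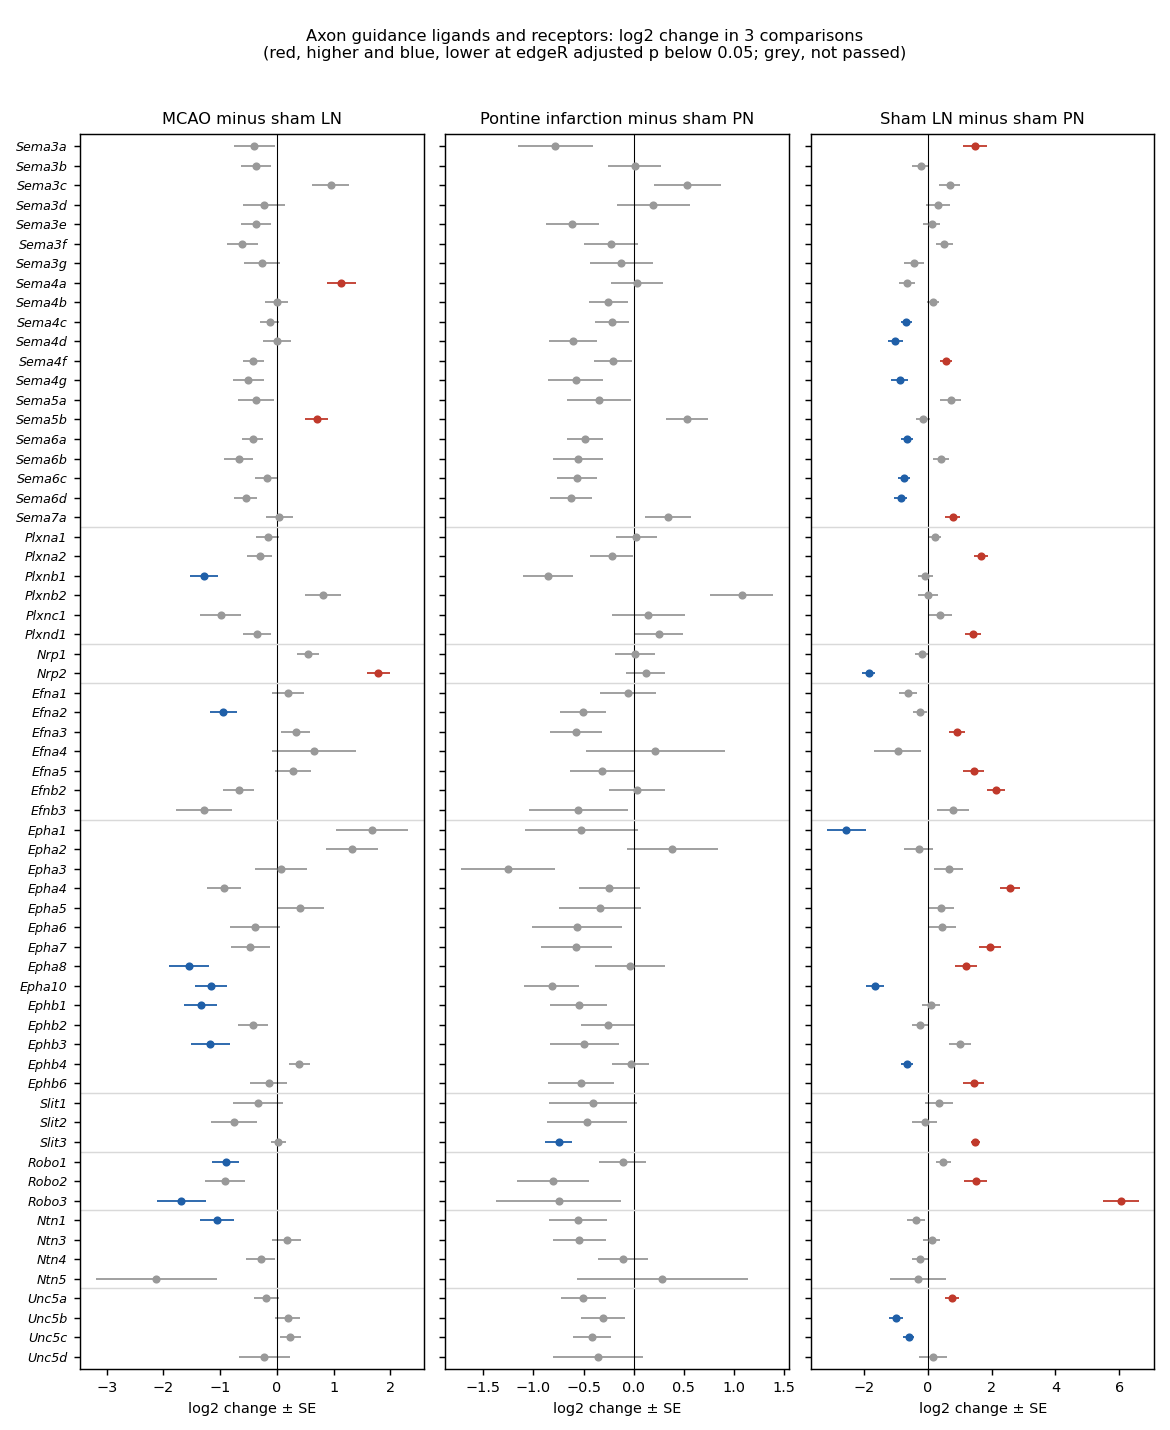
Log2 change ± SE of each of the 63 members in 3 comparisons, grouped by family; red and blue mark members higher and lower at an edgeR adjusted p under 0.05, and the log2 axis has a different range in each panel. MCAO shows 12 changed members, pontine infarction 1, and sham LN against sham PN 28.

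The responses to MCAO and to pontine infarction use separate shams and could be set side by side. The sign of the log2 change was the same in 44 of 63 members, 69.8% against 72.2% of all genes, with 35 negative in both, 55.6% against 40.2%, and 9 positive in both, 14.3% against 32%. Across genes, which are not independent replicates and share their libraries and scaling, Pearson's r between the responses was 0.36 over the 63 members and 0.72 over all genes. Efna2, Epha10, Ephb1, Plxnb1, Robo2, Sema3e and Sema6d were below the shams in every library of both strokes, 11.1% of the members against 7.88% of all genes. These 7 make up 43.8% of the members separate below after MCAO, against 42.2% over all genes. They make up 36.8% of those separate below after pontine infarction, against 42.2% over all genes. Plxnb2 and Sema5b were above the shams in every library of both strokes, 3.17% against 8.61% of all genes. By edgeR no member passed in both comparisons, where 2.29% of all genes were higher and 0.323% lower in both. By DESeq2 Plxnb1 was lower in both (log2 change -1.32 after MCAO and -0.82 after pontine infarction).

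**Figure D4:**
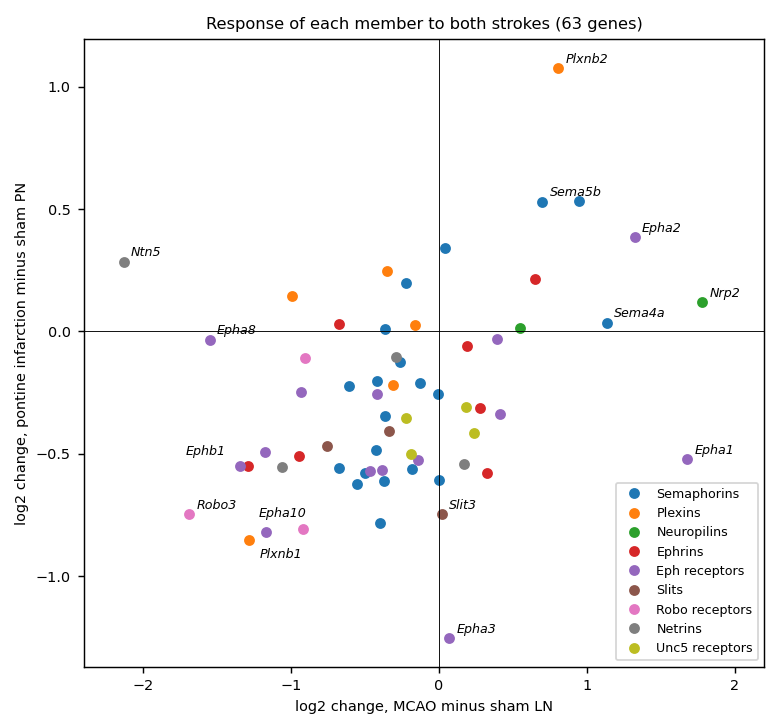
Log2 change of each of the 63 members after MCAO (horizontal axis, against sham LN) and after pontine infarction (vertical axis, against sham PN), coloured by family. Most points lie left of and below the zero lines: 35 members were negative in both and 9 positive in both, and Nrp2 lies far to the right near a pontine response of 0.12.

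The difference between the responses was tested as a contrast in the same model. By edgeR it passed for 0 of 63 members, with 0% of all genes passing, and by limma voom for 0 members. At an unadjusted p under 0.05 were 9 members, 14.3% against 10.7% of all genes. Nrp2 had a difference of 1.66 ± 0.28 (edgeR adjusted p = 0.135). DESeq2 called 238 of 17008 genes for the difference, among the members Nrp2 (1.59, DESeq2 adjusted p = 0.000243) and Slit3 (0.69, DESeq2 adjusted p = 0.0485), both with the more positive response after MCAO. Without MCAO replicate 2, 9 members passed by edgeR: Nrp2 and Sema4a with a more positive response after MCAO, and Efnb3, Epha8, Ephb1, Plxnb1, Plxnc1, Plxnd1 and Robo1 with a more negative one. Of all genes tested in that fit, 970 of 17529 passed. Without any 1 of the other 11 libraries, the count stayed at 0.

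Sham LN was compared with sham PN to see how the groups without a stroke differ. They share their libraries with the stroke comparisons above. Of the 63 members, 28 differed, 44.4% against 21.3% of all genes tested, with 16 higher in sham LN (25.4% against 10%) and 12 lower (19% against 11.3%). Groups did not overlap for 39 members, 61.9% against 50.9% of all genes. Region markers moved with the groups: 10 of 12 telencephalon markers were higher in sham LN, with summed levels of 3868 to 4811 CPM against 372 to 567 in sham PN, and all 8 tested hindbrain markers were lower, at 11.2 to 13.1 against 208 to 294 CPM. Oligodendrocyte markers summed to 15545 to 22025 CPM in sham LN and 43075 to 53609.5 in sham PN, and 8 of 9 passed as lower. Region and sham group cannot be told apart here.

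Among the Robo and Slit genes, Robo3 stood at 20.6, 17.3 and 14.6 CPM in sham LN and at 0.344, 0.151 and 0.287 CPM in sham PN, where it had 8, 4 and 8 counts (log2 change 6.05 ± 0.56, edgeR adjusted p = 3.57e-05). Slit3 stood at 111, 116 and 114 CPM and 37.01, 41.9 and 42.1 CPM, with little spread in either group (log2 change 1.49 ± 0.14, edgeR adjusted p = 3.57e-05). Robo2 was also higher in sham LN (log2 change 1.499). In each of these genes the lowest sham LN library was above the highest sham PN library.

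Of the Eph receptors 4 of 14 were higher in sham LN and 3 lower. Epha4, which binds ephrins of both classes, stood at 292, 325 and 288 CPM in sham LN and 53.8, 55.7 and 42.9 CPM in sham PN (log2 change 2.57 ± 0.32, edgeR adjusted p = 0.000229). Epha7, an ephrin-A receptor, stood at 53.8, 60.7 and 71.8 and 16.7, 18.3 and 13.2 CPM (log2 change 1.95 ± 0.36, edgeR adjusted p = 0.00261). Both were separate between the groups, as were Ephb6, an Eph receptor without kinase activity (log2 change 1.43), and Epha8 (1.20).

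In the opposite direction, Epha10 stood at 32.2, 39.2 and 23.3 CPM in sham LN and 92.3, 101 and 107 CPM in sham PN (log2 change -1.67 ± 0.28, edgeR adjusted p = 0.00157). Epha1, near the limit of counting with 7, 5 and 6 counts in sham LN, stood at 0.184, 0.185 and 0.229 and 0.774, 1.13 and 1.65 CPM (log2 change -2.55 ± 0.62, edgeR adjusted p = 0.0125). Ephb4, an Eph receptor of veins, had a log2 change of -0.67. The ephrins that differed were all higher in sham LN: Efnb2, a transmembrane ephrin also found on arteries, stood at 22.9, 21.2 and 25.8 and 6.28, 5.74 and 3.84 CPM (log2 change 2.14 ± 0.29, edgeR adjusted p = 0.000355), beside Efna5 (log2 change 1.44) and Efna3 (0.92).

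Among plexins, Plxna2, a receptor of Sema6a, stood at 206, 225 and 218 CPM in sham LN and 60.9, 72.7 and 69.4 CPM in sham PN (log2 change 1.68 ± 0.22, edgeR adjusted p = 0.000334), and Plxnd1, the receptor of Sema3e, was higher too (log2 change 1.43). Nrp2 was lower in sham LN (log2 change -1.85 ± 0.20, edgeR adjusted p = 9.89e-05), with the values given above. Of the netrin receptors, Unc5b, also found on blood vessels, stood at 97.3, 89.6 and 68.6 and 139.5, 176 and 193 CPM (log2 change -0.99 ± 0.22, edgeR adjusted p = 0.0073), Unc5c was lower (log2 change -0.60) and Unc5a higher (0.76). No sham library of Plxna2, Nrp2 or Unc5b overlapped the other group.

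Of the 6 class 4 semaphorins 3 were lower in sham LN and 1 higher, and of the 4 class 6 semaphorins 3 were lower. Sema4d, the ligand of Plxnb1 and a semaphorin made by oligodendrocytes, stood at 128, 133 and 98.7 CPM in sham LN and 196, 262 and 271 CPM in sham PN (log2 change -1.02 ± 0.24, edgeR adjusted p = 0.0113), without overlap. The others lower in sham LN were Sema4g (log2 change -0.88), Sema6d (-0.85), Sema6c (-0.75), Sema4c (-0.68) and Sema6a (-0.65). Higher were Sema3a (1.48), a secreted repellent, Sema7a (0.78), the GPI-anchored semaphorin, and Sema4f (0.58). The oligodendrocyte marker sums above moved in the direction of the class 4 and class 6 members that were lower. After MCAO 5 of 9 of these markers fell, while Sema4d had a log2 change of 0.0032 (edgeR adjusted p = 0.995). After pontine infarction 3 of 9 fell, and Sema4d had a log2 change of -0.61 (edgeR adjusted p = 0.173). Of the 4 class 6 members 0 passed after either stroke, with median log2 changes of -0.49 and -0.56. The part of the oligodendrocyte markers was not tested.

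**Figure D5:**
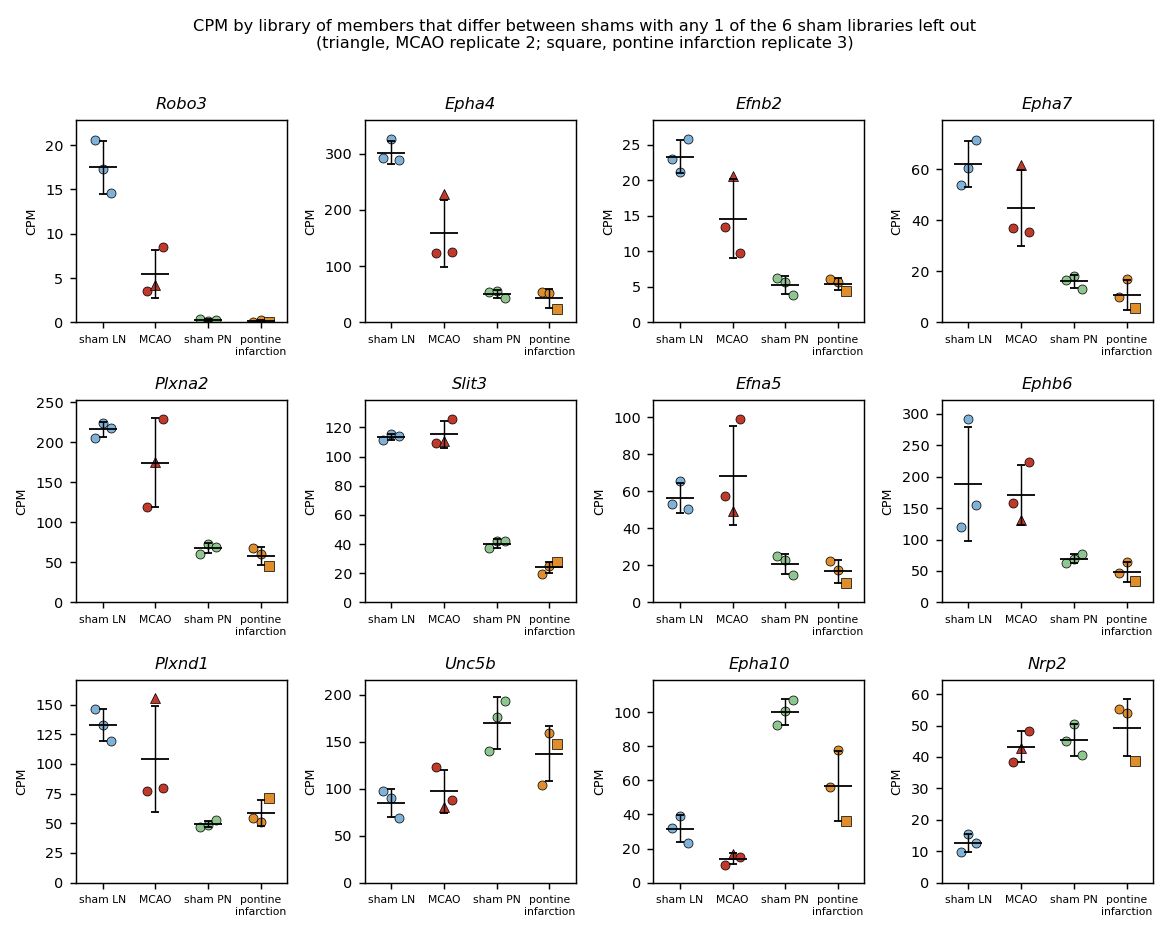
CPM of the 12 members that differed between sham LN and sham PN in every fit with 1 of the 6 sham libraries left out, with 1 point per library and a bar for the mean ± SD of 3 libraries; the triangle is MCAO replicate 2 and the square is pontine infarction replicate 3. Robo3 lies near 0 in sham PN and after pontine infarction, Slit3 stays near its sham LN level after MCAO, and Unc5b, Epha10 and Nrp2 are lower in sham LN than in sham PN.

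With 1 sham library left out, 12 of the 28 passed in every fit: Efna5, Efnb2, Epha10, Epha4, Epha7, Ephb6, Nrp2, Plxna2, Plxnd1, Robo3, Slit3 and Unc5b. The count was 19, 18 and 17 without sham LN replicates 1 to 3, and 21, 18 and 15 without sham PN replicates 1 to 3. Over all genes it ran from 2334 to 3761 with 1 library left out, the unnumbered MCAO library among them, against 3625 with all libraries. Of the 16 others, Efna3 and Sema4g passed in none of the 6 fits, and Robo2 failed only without sham PN replicate 3 (edgeR adjusted p = 0.057) and Sema4d only without sham LN replicate 3 (edgeR adjusted p = 0.0572). Of the 60 guidance signalling genes outside the families 17 were higher in sham LN and 9 lower, where 10% and 11.3% of all genes were. Those higher were led by Ngef (log2 change 3.62) and the Mical2 oxidase (3.15), and those lower by Dpysl3 (-1.77) and Vav2 (-1.42).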

How the data were processed

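The authors deposited 1 table of raw read counts per gene symbol for the 12 libraries. Per the submitters' processing notes, reads were aligned with HISAT2 to Rnor_6.0. Not given in the sources used here are the counting program, the annotation and the strand setting. Per the labels' protocols, total RNA was extracted with Trizol. Of 12 columns, 11 match a sample title. The analysis used edgeR 4.0.16 in R 4.3.3: filterByExpr (minimum count 10, minimum total 15) kept 17008 genes, TMM scaling was used, and 1 quasi-likelihood model was fitted to all 12 libraries (common biological coefficient of variation 0.302). Adjusted p-values are two-sided Benjamini-Hochberg values over all genes tested, with a threshold of 0.05; the SE of a log2 change is its size divided by the root of its F statistic. The script was tested on simulated data. Members and gene lists were chosen with earlier results of these data known.

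Named in full were, in each comparison, the 5 changed members with the largest log2 change in each direction (with 1 CPM or more in the higher group) and, in each family, the member with the smallest p after each stroke. Nrp1, members named only by library overlap and members named only under an alternative were chosen after their values were seen. Alternatives were DESeq2 1.42.0 and its size factors, limma 3.58.1 voom, other filters, the compared libraries alone, a replicate block, each library left out in turn, and all 6 shams pooled as one control. Plxna4, listed as Plxna4a, fell outside the naming rule and was not analysed here. One marker gene is not reported here. Promoter sequences came from RefSeq (GRCr8) and were matched by symbol for 49 members.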

Additional observations from a re-analysis of the deposited data

How the results depend on the processing

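The count of changed members moved by at most 1 with DESeq2 size factors, both other filters and limma voom in all 4 comparisons. After MCAO (12) it was 21 with DESeq2, 5 with the compared libraries only, 6 with the replicate block and 3 to 28 leaving out 1 library. After pontine infarction (1) it was 2 with no filter, 3 with DESeq2, 2 with the compared libraries only, 4 with all 6 shams as one control and 0 to 3 leaving out 1 library. For the difference (0) it was 2 with DESeq2 and 0 to 9 leaving out 1 library. Between shams (28) it was 38 with the compared libraries only, 29 with DESeq2, 23 with no filter and 15 to 27 leaving out 1 library. Over all genes the ranges were 1136 to 6170 for MCAO (3163), 6 to 1738 for pontine infarction (694), 0 to 970 for the difference (0) and 2334 to 6365 for the shams (3625). Unc5c after MCAO changed sign, to -0.098 with all 6 shams and -0.089 without MCAO replicate 2 (-0.089 to 0.36 leaving out 1 library), and passed in none of these fits. The cause was not tested beyond what the settings themselves change.

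Whether replicate numbers pair the samples was not settled. Deviations of same-numbered libraries correlated weakly, at 0.104 and 0.043 for sham LN and MCAO and at 0.048, 0.150 and 0.154 for sham PN and pontine infarction. In both sets each library with a same-numbered partner correlated best with that partner. Differently numbered pairs ran from -0.141 to 0.0465. With the replicate block, which leaves out the unnumbered library, 6 members passed after MCAO, 1 after pontine infarction, 0 for the difference and 29 between shams; without that library and without a block the count after MCAO was 5. Leaving out the unnumbered library from the pontine and sham comparisons as well, an alternative chosen after seeing the data, gave 1 and 27. Depth limited Robo3 in sham PN and pontine infarction and Epha1 in sham LN, where libraries held 1 to 12 and 5 to 7 counts.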
